A study of Danio rerio with 11 samples.

Results

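In lysates of 8-cell zebrafish embryos from 2 transgenic lines, 34 of 32520 annotated genes had RNA in every input library of one line at a level well above that of every input library of the other, where most of them were nearly absent. The members were chosen on read counts scaled to a library total of 1000000 (CPM). A gene was taken when its lowest CPM among the 3 inputs of one line was at least 2 and at least 4 times the highest CPM among the 3 inputs of the other line, after 0.25 CPM had been added to that highest value. By this rule 18 genes were found in the eIF4E1b lysate and 16 in the eIF4E1c lysate, among 12418 genes that reached 2 CPM in all inputs of either line. Because these input values chose the genes, the input levels are given as a description without a test, and the tests were run on the RNA immunoprecipitation (RIP) libraries of the same lines, which the rule did not use. By the paper's methods the input is a part of each lysate used for RIP, so the RIPs are not independent of the inputs.

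The embryos carried tg(actb2:3xflag-sfGFP-eIF4E1b) or tg(actb2:3xflag-sfGFP-eIF4E1c), and both groups were collected at the 8-cell stage. Each transgene drives a tagged cap-binding protein from the actb2 promoter, which is active in most cells. The genotypes name only the transgene and do not state whether the lines' own eIF4E genes are intact. No line without a transgene was among the libraries. The lines were made separately by Tol2 transposition, in which the site of insertion is not controlled, and the number of founders behind each line is not given in the sources used here. RNA bound to the tagged protein was pulled down with anti-GFP beads (3 eIF4E1b RIP and 2 eIF4E1c RIP libraries) and set against input RNA from the lysates (3 libraries per line).

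eIF4E proteins bind the 5′ cap of messenger RNA and bring it to the ribosome or, through partner proteins, keep it silent. eIF4E1b and eIF4E1c are forms found in zebrafish oocytes and early embryos. At the 8-cell stage the genome of the embryo is still largely silent, and nearly all RNA present was loaded into the egg by the mother.

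The 11 libraries held 6943631 to 13993294 counts on genes, so that 3 counts, the limit allowed by a count of 0, correspond to 0.214 to 0.432 CPM. The shallowest library, eIF4E1c RIP replicate 1, had counts on 15114 genes, against 17520 in eIF4E1c RIP replicate 2 and 18480 to 19591 in the other libraries. Of the maternal and germ plasm markers looked up, 13 of 14 were matched and summed to 2210 to 2750 CPM in the eIF4E1b inputs and 2384 to 2798 CPM in the eIF4E1c inputs. In every library the summed markers of zygotic genes reached at most 1.93 CPM, those of liver (7 of 7 matched) at most 0.929 CPM and those of erythrocytes (4 of 8 matched) at most 0.690 CPM. Summed follicle cell markers (6 of 8 matched) were at 0.478 to 1.31 CPM in the eIF4E1b inputs and 1.42 to 4.88 CPM in the eIF4E1c inputs. This sum is mainly 1 gene, gsdf, at means of 0.668 and 2.51 CPM in these inputs. The other matched follicle markers had input means of at most 0.203 CPM. Summed sperm and testis markers (7 of 9 matched) were at 4.31 to 7.54 CPM in the eIF4E1b inputs and 3.02 to 5.27 CPM in the eIF4E1c inputs. The part of these cells in the values below was not tested, and in pooled embryos fewer cells with an RNA and less RNA per cell cannot be told apart. Neither bait gene, whose reads can come from the transgene as well, was a member. EIF4E1B was at 80.6, 59.4 and 60.1 CPM in the eIF4E1b inputs and at 13.5, 20.1 and 18.6 CPM in the eIF4E1c inputs, and eif4e1c at 61.2, 55.2 and 52.2 CPM and at 91.1, 92.8 and 79.3 CPM in the same inputs.

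The gap between the lines was wide for most members. The ratio that the rule used had a median of 9.70 over the 18 genes of the eIF4E1b lysate and 6.76 over the 16 genes of the eIF4E1c lysate, and it reached 8 for 12 genes of the eIF4E1b lysate and 6 genes of the eIF4E1c lysate. In the lysate of the other line, 2 genes of each set had no count in any of the 3 inputs, and 8 of 18 and 6 of 16 had at most 3 counts in every one. Absence is too strong a word for 5 members, which reached 2 CPM or more in at least 1 input of the other line. These were ccdc88b and GLUL (ENSDARG00000099776), at up to 3.30 and 5.72 CPM in the eIF4E1c inputs, and DSCAM (ENSDARG00000024865), PRKG2 and NR4A1, at up to 2.03, 5.42 and 3.05 CPM in the eIF4E1b inputs. Just inside the threshold of 4 were GLUL (ENSDARG00000099776), ENSDARG00000117326 and SDK1 (ENSDARG00000078866) at 4.65, 4.57 and 4.25 in the eIF4E1b lysate, and sall2, NR4A1 and UNCX (ENSDARG00000102976) at 4.31, 4.17 and 4.13 in the eIF4E1c lysate. Just outside it were ENSDARG00000099650, rph3ab and SLIT3 at 3.97, 3.66 and 3.48, and RNF121, ATP8B4 and ENSDARG00000045485 at 3.99, 3.98 and 3.72. The size of the set depends on single libraries. Without eIF4E1b input replicate 3 the rule took 34 genes of the eIF4E1b lysate, and without eIF4E1c input replicate 1 it took 30 of the eIF4E1c lysate, and since leaving out a library can only loosen the rule, the members stay in by construction.

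**Figure D1:**
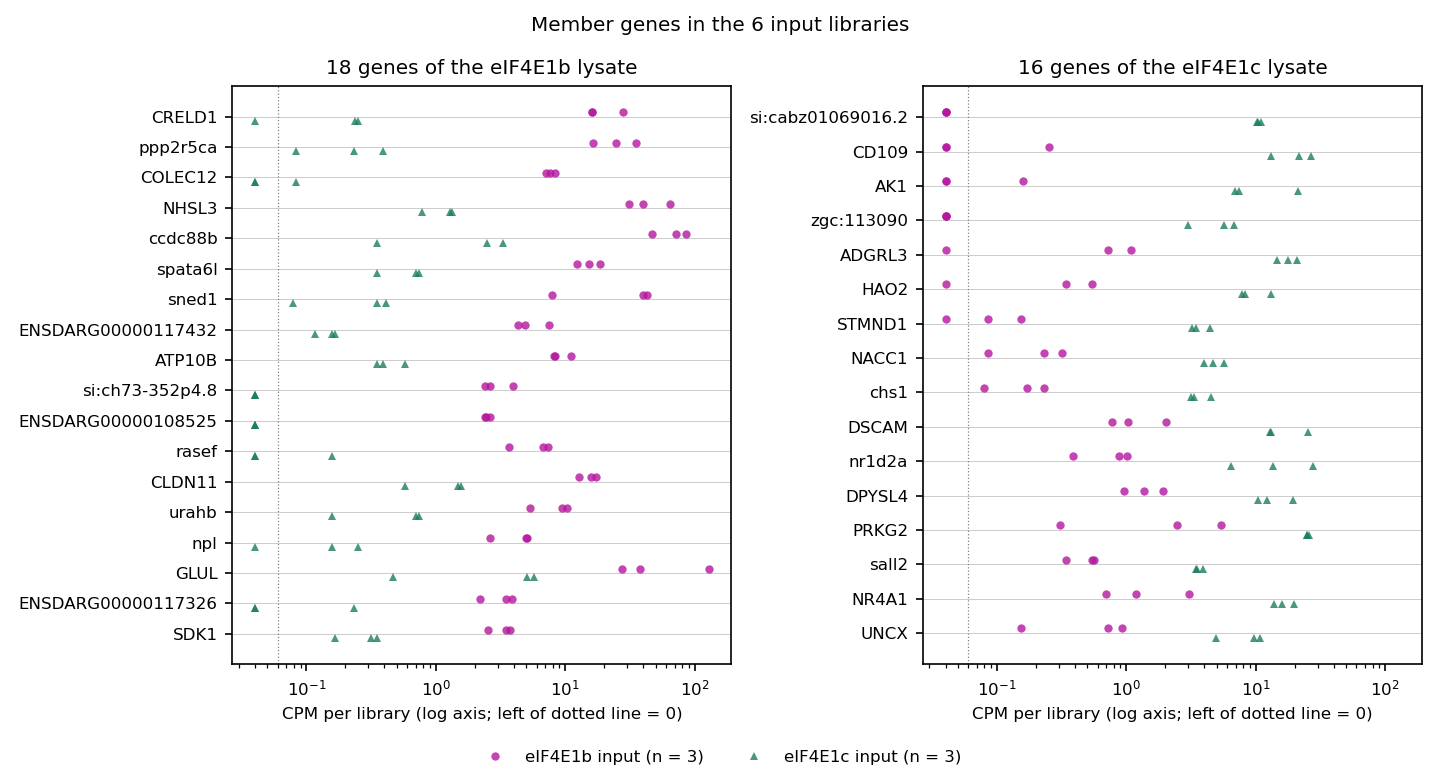
Input levels of the 18 genes of the eIF4E1b lysate and the 16 genes of the eIF4E1c lysate, in CPM on a log axis, with 1 point per input library and the eIF4E1b libraries drawn first. In each set the points of the other line lie to the left, at 0, 0.236 and 0.249 CPM for CRELD1 and at up to 5.72 CPM for GLUL, 1 of 5 genes that reach 2 CPM there.

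The 34 genes come from many functional classes. Sorted after their values were seen, 7 encode cell surface, adhesion or matrix proteins, 7 signalling or cytoskeletal proteins, 6 metabolic enzymes, 5 regulators of transcription and 3 other named proteins, and 6 have a provisional name or no symbol. All 5 transcription regulators belong to the eIF4E1c lysate. The share of such genes among all genes was not counted, so nothing is concluded from this. No member belongs to the major histocompatibility complex, NLR, TRIM, NITR, interferon-induced GTPase, znf or histone families that were searched by symbol. Each of these families held at most 1.20% (znf) of the genes at 2 CPM or more. A count of 0 among 34 members is near such shares and says nothing about the members. Genes without a symbol made up 8.82% of the members, against 3.68% of the genes at 2 CPM or more, and provisional names 8.82% against 8.95%.

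Among the signalling and cytoskeletal genes of the eIF4E1b lysate, ccdc88b, of the family of hook-related proteins that link to the cytoskeleton, was at 86.2, 71.6 and 46.8 CPM in the eIF4E1b inputs and 0.348, 3.30 and 2.49 CPM in the eIF4E1c inputs. As for every member, inputs that do not overlap between the lines were a condition of the rule. ppp2r5ca, a regulatory subunit of protein phosphatase 2A, was at 24.5, 16.3 and 35.3 CPM in the eIF4E1b inputs and 0.232, 0.393 and 0.0829 CPM in the eIF4E1c inputs. NHSL3, of the Nance-Horan syndrome protein family, was at 64.5, 31.2 and 40.3 CPM in the eIF4E1b inputs and 1.28, 0.787 and 1.33 CPM in the eIF4E1c inputs. rasef, a Rab-like GTPase with calcium-binding EF hands, was at 6.78, 3.66 and 7.39 CPM in the eIF4E1b inputs and had 2 counts in all in the eIF4E1c inputs.

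The surface and matrix genes of this lysate differed in how even they were across the libraries of their own line. COLEC12, a collectin scavenger receptor, had even levels of 8.31, 7.65 and 7.08 CPM in the eIF4E1b inputs and a single count in the eIF4E1c inputs. sned1, an extracellular matrix protein, was at 39.9, 7.97 and 43.0 CPM in the eIF4E1b inputs and 0.348, 0.0787 and 0.414 CPM in the eIF4E1c inputs. Its second eIF4E1b library was thus 5.40 times below the highest, the widest spread of the 18 genes. CLDN11 (ENSDARG00000030723), a claudin of tight junctions, was at 17.4, 12.8 and 15.7 CPM in the eIF4E1b inputs and 0.581, 1.57 and 1.49 CPM in the eIF4E1c inputs. SDK1, a sidekick adhesion molecule, was at 3.73, 3.51 and 2.54 CPM in the eIF4E1b inputs and 0.348, 0.315 and 0.166 CPM in the eIF4E1c inputs.

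The 3 metabolic enzymes of the eIF4E1b lysate act on unrelated substrates. GLUL, glutamine synthetase, was at 129, 38.0 and 27.7 CPM in the eIF4E1b inputs and 0.465, 5.04 and 5.72 CPM in the eIF4E1c inputs. urahb, which acts in the breakdown of urate, was at 9.41, 5.34 and 10.2 CPM in the eIF4E1b inputs and 0.697, 0.157 and 0.746 CPM in the eIF4E1c inputs. npl, the lyase that cleaves sialic acid, was at 5.0, 2.63 and 5.08 CPM in the eIF4E1b inputs and 0, 0.157 and 0.249 CPM in the eIF4E1c inputs. For all 3 at least 2 of the 3 eIF4E1c inputs still had counts, as for most genes of this lysate.

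CRELD1, an EGF domain protein whose human gene is linked to septation of the heart, was at 16.1, 27.9 and 16.1 CPM in the eIF4E1b inputs and 0, 0.236 and 0.249 CPM in the eIF4E1c inputs. spata6l, named for its relation to the sperm protein SPATA6, was at 18.6, 12.3 and 15.3 CPM in the eIF4E1b inputs and 0.348, 0.708 and 0.746 CPM in the eIF4E1c inputs. ATP10B, a lipid flippase, was at 11.1, 8.36 and 8.16 CPM in the eIF4E1b inputs and 0.348, 0.393 and 0.580 CPM in the eIF4E1c inputs. The genes with no informative name include the only members of this set with no count in any eIF4E1c input. These are si:ch73-352p4.8, at 3.98, 2.39 and 2.62 CPM in the eIF4E1b inputs, at least 33.1-fold higher than a limit of 3 counts over the 3 eIF4E1c inputs, and ENSDARG00000108525, at 2.46, 2.63 and 2.39 CPM and at least 27.7-fold higher. ENSDARG00000117432 was at 7.46, 4.86 and 4.31 CPM in the eIF4E1b inputs and at most 0.166 CPM in the eIF4E1c inputs, and ENSDARG00000117326 at 2.20, 3.90 and 3.46 CPM and at most 0.232 CPM.

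In the eIF4E1c lysate, the surface genes were CD109, a membrane-anchored protein that modulates TGF-beta signalling, ADGRL3 (ENSDARG00000090624), a latrophilin, and DSCAM (ENSDARG00000024865), a neuronal adhesion molecule. CD109 had 3 counts in the eIF4E1b inputs, all in replicate 1, and was at 13, 21.4 and 26.5 CPM in the eIF4E1c inputs. ADGRL3 was at 0, 0.717 and 1.08 CPM in the eIF4E1b inputs and 20.8, 17.6 and 14.7 CPM in the eIF4E1c inputs. DSCAM was less close to absence, at 2.03, 1.04 and 0.770 CPM in the eIF4E1b inputs and 25.3, 12.8 and 13.1 CPM in the eIF4E1c inputs.

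Among its enzymes, AK1, an adenylate kinase that balances adenine nucleotides, had 2 counts in the eIF4E1b inputs and was at 21.0, 7.40 and 6.96 CPM in the eIF4E1c inputs. HAO2, a peroxisomal oxidase of hydroxy acids, was at 0.339, 0 and 0.539 CPM in the eIF4E1b inputs and 13.1, 7.87 and 8.2 CPM in the eIF4E1c inputs. chs1, a chitin synthase, was at 0.170, 0.0797 and 0.231 CPM in the eIF4E1b inputs and 3.14, 4.48 and 3.31 CPM in the eIF4E1c inputs. AK1 and HAO2 had their highest input in eIF4E1c replicate 1, chs1 in replicate 2.

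The signalling and cytoskeletal genes of the eIF4E1c lysate were PRKG2, a cGMP-dependent protein kinase, DPYSL4, of the collapsin response mediator family, and STMND1, a stathmin domain protein. PRKG2 was the most uneven in the line with little of it, at 5.42, 2.47 and 0.308 CPM in the eIF4E1b inputs, against 25.9, 24.8 and 24.7 CPM in the eIF4E1c inputs. DPYSL4 was at 1.36, 0.956 and 1.92 CPM in the eIF4E1b inputs and 19.4, 12.1 and 10.4 CPM in the eIF4E1c inputs. STMND1 was at 0.0848, 0 and 0.154 CPM in the eIF4E1b inputs and 4.41, 3.23 and 3.48 CPM in the eIF4E1c inputs.

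Of the 5 transcription regulators, nr1d2a and NR4A1 are nuclear receptors, and nr1d2a is a Rev-erb repressor of the circadian clock. nr1d2a was at 1.02, 0.876 and 0.385 CPM in the eIF4E1b inputs and 13.5, 27.9 and 6.46 CPM in the eIF4E1c inputs. NR4A1, an immediate early gene in mammals, was at 3.05, 1.19 and 0.693 CPM in the eIF4E1b inputs and 19.6, 15.8 and 13.8 CPM in the eIF4E1c inputs. The others were NACC1 (ENSDARG00000078238), a BTB domain regulator, sall2, a zinc finger factor, and UNCX, a homeobox factor. Their levels were low even in the eIF4E1c inputs, at 3.98 to 5.69, 3.48 to 3.93 and 4.89 to 10.9 CPM. In the eIF4E1b inputs NACC1 reached at most 0.319 CPM, sall2 0.558 CPM and UNCX 0.932 CPM.

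si:cabz01069016.2 and zgc:113090 were the members with no count in any eIF4E1b input. si:cabz01069016.2 was at 10.5, 11 and 10.2 CPM in the eIF4E1c inputs, which is at least 132-fold higher than 3 counts over the eIF4E1b inputs, and zgc:113090 at 6.74, 2.99 and 5.63 CPM, at least 61.1-fold higher. The first had the largest ratio under the rule of all 34 genes, 40.8, followed by CRELD1 at 32.3.

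The RIP libraries were then compared between the lines to see whether the RNA pulled down with each tagged protein carries the difference of its lysate. It did for many genes, which is in part built in, because the RIPs came from the lysates that also gave the inputs. In the DESeq2 Wald test over all genes, at an adjusted p under 0.005, 8 of the 18 genes of the eIF4E1b lysate were higher in the eIF4E1b RIP, where 3.44% of the 14127 tested genes were, and 9 of the 16 genes of the eIF4E1c lysate were higher in the eIF4E1c RIP, where 4.51% of tested genes were. DESeq2 called 0 genes against the direction of their lysate, where 4.51% of tested genes were higher in the eIF4E1c RIP and 3.44% in the eIF4E1b RIP. edgeR's quasi-likelihood test also called 0, where 0.0134% were called in each direction. Counts of 0 are near such shares and say nothing about the members. That 0 had an unadjusted p under 0.05 against the lysate in either test adds nothing, since every fitted sign went with it. The fitted log2 fold change (eIF4E1b over eIF4E1c) had the sign of the lysate for all 18 and all 16 genes. Its median was 4.82 for the eIF4E1b set, or 4.01 when the 7 genes with no count in the eIF4E1c RIPs are put at their lower bound, and -3.71 for the eIF4E1c set, against -0.012 for all tested genes.

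The calls depend on the test. At the same threshold edgeR called 1 gene of each set, ccdc88b and AK1, where 0.0134% of tested genes were called in each direction, and at an adjusted p under 0.05 it called 9 and 9, against 3.24% and 5.58%. DESeq2 at 0.05 called 12 and 9, against 8.42% and 10.1%. The eIF4E1c calls also rest on its 2 RIP libraries, since 5 of the 9 were left without eIF4E1c RIP replicate 1 and 4 without replicate 2.

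The separation was also counted without a model. Every eIF4E1b RIP library lay above every eIF4E1c RIP library for 15 of 18 genes, against 18.2% of genes at 2 CPM or more in the eIF4E1b inputs. Some of these gaps were small, as for urahb, at 4.45 against 4.29 CPM. The lowest eIF4E1b RIPs of ENSDARG00000117326 and SDK1 were at 0.0747 and 0.429 CPM against 0. In the eIF4E1c RIPs 3 counts are 0.432 and 0.279 CPM, so a gap of that size is within counting error. Every eIF4E1c RIP library lay above every eIF4E1b RIP library for 11 of 16, against 25.3%. The rule itself, applied to the RIPs, was met by 7 of 18 genes, against 0.532%, and by 5 of 16, against 0.948%, and the second count was 10 without eIF4E1c RIP replicate 1. Summed over the 18 genes of the eIF4E1b lysate, the RIPs held 280, 232 and 177 CPM in eIF4E1b and 7.49 and 33.3 CPM in eIF4E1c. Over the 16 genes of the eIF4E1c lysate they held 8.37, 10.5 and 5.07 CPM in eIF4E1b and 209 and 165 CPM in eIF4E1c. A few genes carry much of these sums. In eIF4E1b RIP replicate 1, ccdc88b and GLUL (ENSDARG00000099776) were at 92.6 and 63.8 CPM. In eIF4E1c RIP replicate 1, AK1 and DSCAM (ENSDARG00000024865) were at 106 and 43.3 CPM.

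**Figure D2:**
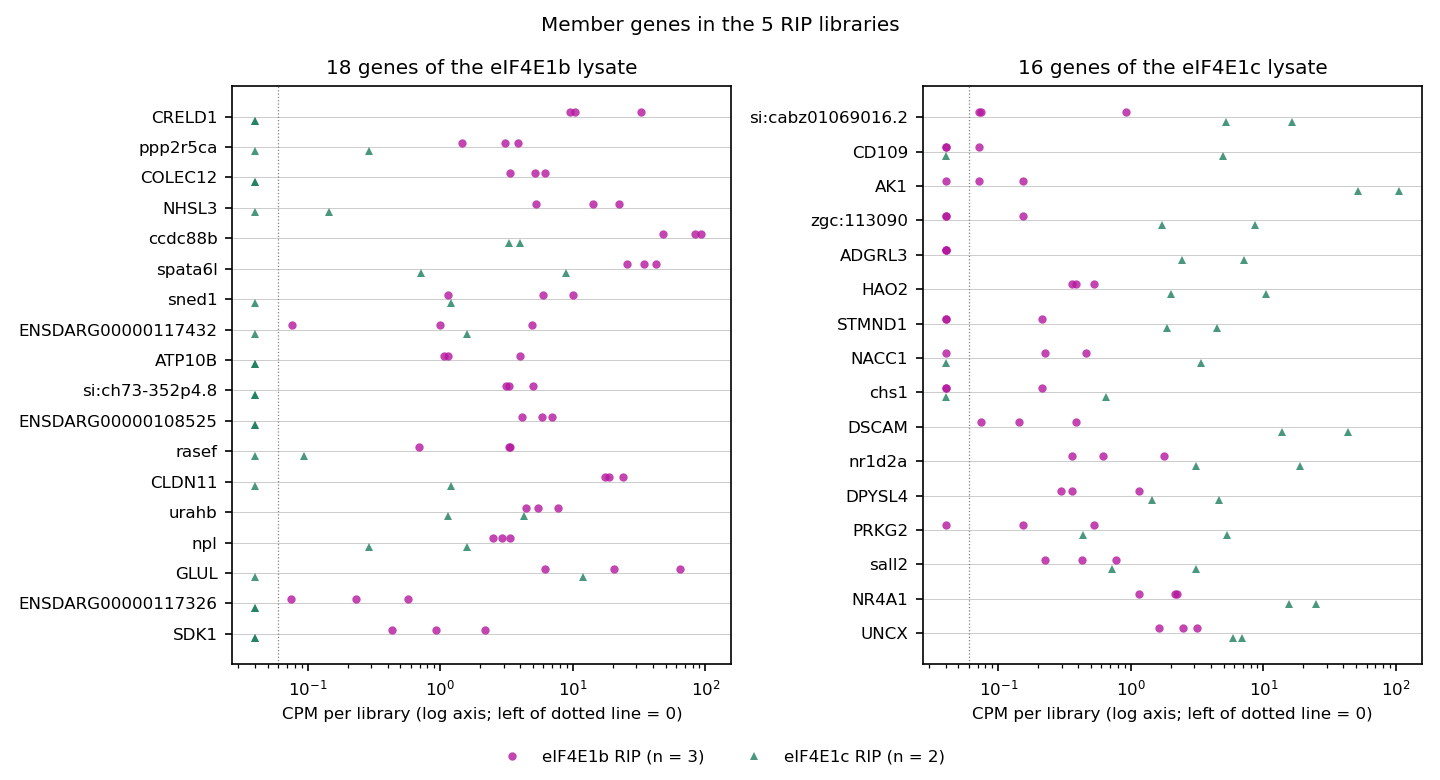
RIP levels of the same genes in the same order, in CPM on a log axis, with 1 point per RIP library (3 eIF4E1b, 2 eIF4E1c). The groups are apart for 15 of the 18 genes of the eIF4E1b lysate and 11 of the 16 genes of the eIF4E1c lysate, and 7 and 1 genes are at 0 in every RIP library of the other line. Some gaps are small, as for ENSDARG00000117326, with its lowest eIF4E1b RIP at 0.0747 CPM against 0.

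Of the 8 genes called in the eIF4E1b direction, ccdc88b had the smallest adjusted p. It was at 92.6, 83.0 and 47.8 CPM in the eIF4E1b RIPs and 3.31 and 4.01 CPM in the eIF4E1c RIPs, a log2 fold change of 4.42 ± 0.47 (SE, DESeq2 adjusted p = 3.40e-17, edgeR 0.00333). Its lowest eIF4E1b RIP was well above its highest eIF4E1c RIP. CLDN11 was at 17.5, 18.9 and 24.0 CPM in the eIF4E1b RIPs and 0 and 1.21 CPM in the eIF4E1c RIPs (5.18 ± 0.75, DESeq2 adjusted p = 2.42e-09, edgeR 0.0101). spata6l was at 25.7, 42.6 and 34.3 CPM in the eIF4E1b RIPs and 0.720 and 8.94 CPM in the eIF4E1c RIPs (3.11 ± 0.68, DESeq2 adjusted p = 0.000156, edgeR 0.0295). The eIF4E1c RIPs of spata6l differ widely from each other, and its call was lost without eIF4E1b RIP replicate 2 or 3.

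The other 5 had 0 or 1 count in the eIF4E1c RIPs, and a fitted fold change of such a gene depends on the model's treatment of zeros and is not a bound. CRELD1 was at 9.49, 32.4 and 10.4 CPM in the eIF4E1b RIPs and had no count in the eIF4E1c RIPs, at least 101-fold higher than 3 counts over both (DESeq2 adjusted p = 2.06e-07, edgeR 0.00653). NHSL3 was at 22.1, 5.29 and 14.1 CPM in the eIF4E1b RIPs and had 1 count in the eIF4E1c RIPs, a ratio of 246 with a counting interval of 43.9 to 9727 (DESeq2 adjusted p = 4.98e-06, edgeR 0.00880). COLEC12, at 5.16, 6.14 and 3.36 CPM in the eIF4E1b RIPs, was at least 28.6-fold higher (DESeq2 adjusted p = 7.12e-05, edgeR 0.0133). The remaining pair are genes with no informative name that were also at 0 in every eIF4E1c input. ENSDARG00000108525 was at 4.11, 6.98 and 5.86 CPM in the eIF4E1b RIPs, at least 33.2-fold higher (DESeq2 adjusted p = 3.25e-05, edgeR 0.0110). si:ch73-352p4.8 was at 5.01, 3.15 and 3.29 CPM, at least 22.5-fold higher (DESeq2 adjusted p = 0.000230, edgeR 0.0163). The calls of COLEC12 and si:ch73-352p4.8 were lost without eIF4E1c RIP replicate 2.

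The 10 genes of the eIF4E1b lysate that were not called are listed next, first those with at most 2 counts over the eIF4E1c RIPs. Why they were not called was not tested, and some called genes also had counts in the eIF4E1c RIPs. ppp2r5ca was at 3.89, 1.46 and 3.07 CPM in the eIF4E1b RIPs and 0.288 and 0 CPM in the eIF4E1c RIPs (4.45 ± 1.41, DESeq2 adjusted p = 0.0139). ATP10B was at 3.96, 1.07 and 1.14 CPM in the eIF4E1b RIPs with no count in the eIF4E1c RIPs (DESeq2 adjusted p = 0.00566), and rasef at 3.29, 0.690 and 3.36 CPM with 1 count (DESeq2 adjusted p = 0.0115). SDK1 and ENSDARG00000117326 were also at 0 in both eIF4E1c RIPs but at only 0.429 to 2.17 and 0.0747 to 0.572 CPM in the eIF4E1b RIPs, and DESeq2 gave them no adjusted p.

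The others, sned1, ENSDARG00000117432, GLUL, urahb and npl, had 11 to 128 counts over the eIF4E1c RIPs. Levels in the eIF4E1c inputs far below those in the eIF4E1b inputs were a condition of the rule. GLUL was at 63.8, 20.4 and 6.15 CPM in the eIF4E1b RIPs and 0 and 11.9 CPM in the eIF4E1c RIPs, so that the groups overlapped (2.62 ± 2.22, DESeq2 adjusted p = 0.445). Without eIF4E1c RIP replicate 2 the GLUL value was 9.86, in a fit with 1 eIF4E1c RIP left, so whether GLUL is called rests on that library. sned1 was at 5.98, 1.15 and 10.1 CPM in the eIF4E1b RIPs and 0 and 1.21 CPM in the eIF4E1c RIPs (3.50 ± 1.12, DESeq2 adjusted p = 0.0153). urahb was at 7.70, 4.45 and 5.43 CPM in the eIF4E1b RIPs and 1.15 and 4.29 CPM in the eIF4E1c RIPs (1.28 ± 0.72, DESeq2 adjusted p = 0.209), and npl at 2.91, 3.38 and 2.50 CPM and at 0.288 and 1.58 CPM (1.83 ± 0.96, DESeq2 adjusted p = 0.175). ENSDARG00000117432 was the least settled, at 4.93, 0.0767 and 1.00 CPM in the eIF4E1b RIPs and 1.58 and 0 CPM in the eIF4E1c RIPs (1.09 ± 1.64, DESeq2 adjusted p = 0.702), and its sign turned to -0.63 without eIF4E1b RIP replicate 1.

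Of the 9 genes called in the eIF4E1c direction, AK1 stood first. It had 3 counts in the eIF4E1b RIPs and was at 106 and 51.4 CPM in the eIF4E1c RIPs, 981 times as much with a counting interval of 335 to 4762 (log2 fold change -10.09 ± 1.02, DESeq2 adjusted p = 2.08e-19, edgeR 0.000651). DSCAM was at 0.0747, 0.384 and 0.143 CPM in the eIF4E1b RIPs and 43.3 and 13.8 CPM in the eIF4E1c RIPs (-7.25 ± 0.88, DESeq2 adjusted p = 2.97e-13, edgeR 0.00536). NR4A1 was at 2.17, 2.22 and 1.14 CPM in the eIF4E1b RIPs and 15.7 and 24.9 CPM in the eIF4E1c RIPs (-3.36 ± 0.57, DESeq2 adjusted p = 4.91e-07, edgeR 0.0101). These 3 calls were kept whichever RIP library was left out.

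The other 6 calls were each lost without at least 1 of the libraries. ADGRL3 had no count in the eIF4E1b RIPs and was at 2.45 and 7.08 CPM in the eIF4E1c RIPs, at least 70.9-fold higher (DESeq2 adjusted p = 1.85e-05), and was lost without eIF4E1c RIP replicate 1 or 2. si:cabz01069016.2 was at 0.0747, 0.921 and 0.0715 CPM in the eIF4E1b RIPs and 5.18 and 16.5 CPM in the eIF4E1c RIPs (-4.74 ± 1.01, DESeq2 adjusted p = 9.90e-05), and was lost without eIF4E1c RIP replicate 2. Its 14 counts in the eIF4E1b RIPs stand beside 0 in the eIF4E1b inputs. zgc:113090 had 2 counts in the eIF4E1b RIPs and was at 1.73 and 8.57 CPM in the eIF4E1c RIPs (-6.45 ± 1.51, DESeq2 adjusted p = 0.000474), and was kept only without eIF4E1b RIP replicate 2.

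nr1d2a was at 1.79, 0.614 and 0.357 CPM in the eIF4E1b RIPs and 18.9 and 3.07 CPM in the eIF4E1c RIPs (-3.77 ± 0.94, DESeq2 adjusted p = 0.00123), and was lost without eIF4E1b RIP replicate 2 or 3 or eIF4E1c RIP replicate 1. HAO2 was at 0.523, 0.384 and 0.357 CPM in the eIF4E1b RIPs and 2.02 and 10.4 CPM in the eIF4E1c RIPs (-3.65 ± 0.96, DESeq2 adjusted p = 0.00224), and was lost without eIF4E1b RIP replicate 1, 2 or 3 or eIF4E1c RIP replicate 2. STMND1 had 3 counts in the eIF4E1b RIPs and was at 4.46 and 1.86 CPM in the eIF4E1c RIPs (-5.43 ± 1.52, DESeq2 adjusted p = 0.00460), and was kept only without eIF4E1b RIP replicate 3. For these 3 genes the groups did not overlap, but the 2 eIF4E1c RIPs differed from each other by several times for HAO2 and nr1d2a.

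For CD109, NACC1 and chs1, RNA was found in only 1 of the 2 eIF4E1c RIPs, at 4.94, 3.35 and 0.652 CPM in replicate 2 and 0 in replicate 1, and DESeq2 gave no adjusted p. In the eIF4E1b RIPs they were at no more than 0.0715, 0.460 and 0.214 CPM. Replicate 1 was the shallower library, in which 13 of the 16 genes had counts, against 16 of 16 in replicate 2. In replicate 1, 3 counts correspond to 0.432 CPM, which is below the replicate 2 levels of CD109, NACC1 and chs1. The part of depth in these zeros was not tested. Without replicate 2 the sign turned for NACC1 (2.84) and chs1 (1.34). PRKG2 was at 0.523, 0.153 and 0 CPM in the eIF4E1b RIPs and 0.432 and 5.31 CPM in the eIF4E1c RIPs (-3.45 ± 1.53, DESeq2 adjusted p = 0.0977), and sall2 at 0.224, 0.767 and 0.429 CPM and at 0.720 and 3.07 CPM (-1.77 ± 1.30, DESeq2 adjusted p = 0.361). UNCX was at 2.47, 3.15 and 1.64 CPM in the eIF4E1b RIPs and at 6.91 and 5.87 CPM in the eIF4E1c RIPs (-1.38 ± 0.71, DESeq2 adjusted p = 0.165). DPYSL4 was at 0.299, 1.15 and 0.357 CPM in the eIF4E1b RIPs and 1.44 and 4.66 CPM in the eIF4E1c RIPs (-2.14 ± 1.13, DESeq2 adjusted p = 0.175).

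**Figure D3:**
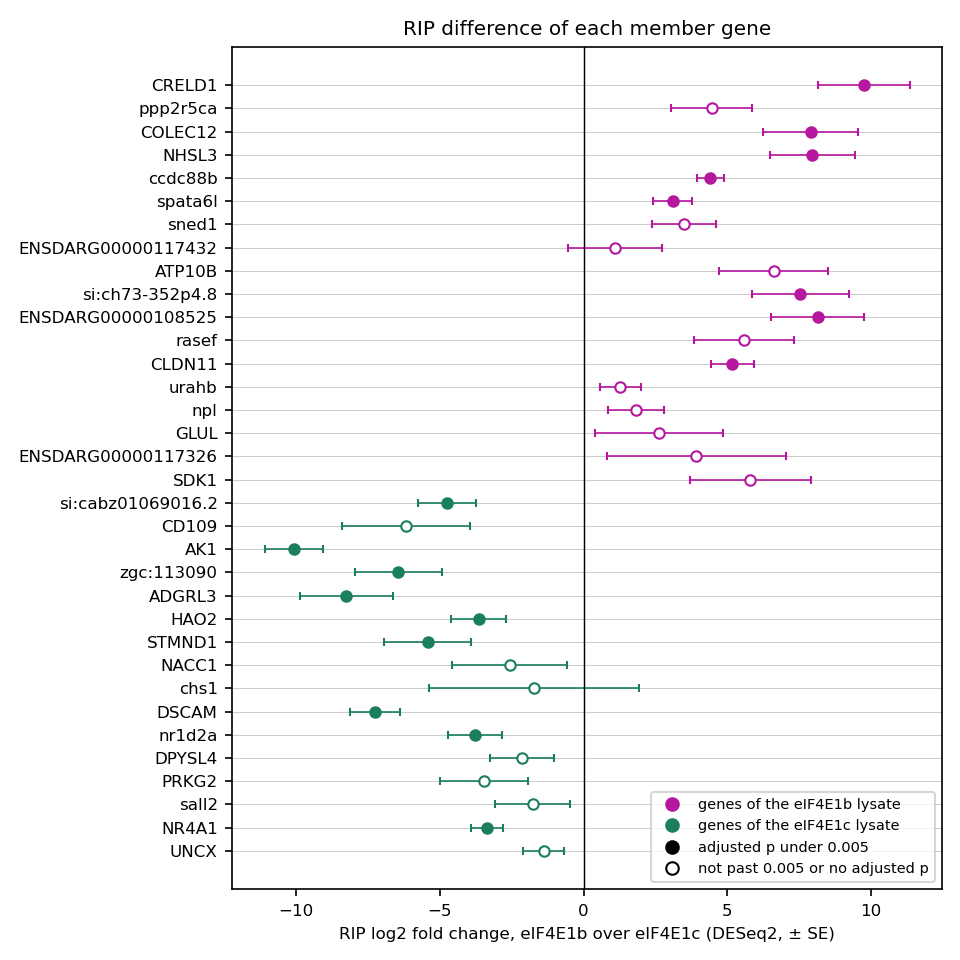
RIP log2 fold change (eIF4E1b over eIF4E1c) of each member with its standard error, from DESeq2 over 3 eIF4E1b and 2 eIF4E1c RIP libraries, with genes called at an adjusted p under 0.005 shown as filled points. The values run between 1.09 and 9.75 for the eIF4E1b lysate and between -10.09 and -1.38 for the eIF4E1c lysate.

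Over all members 17 of 34 were called, against 3.44% of tested genes in the eIF4E1b direction and 4.51% in the eIF4E1c direction. The counts by functional class pool both lines and are a description only. The classes are small and were sorted after the values were seen. Of the 7 surface and matrix genes 4 were called in the RIP comparison, of the 7 signalling and cytoskeletal genes 3, of the 6 enzymes 2, of the 5 transcription regulators 2, of the 3 other named genes 2, and of the 6 genes without an informative name 4. The 3 enzymes of the eIF4E1b lysate were all among those not called, and a difference between classes was not tested.

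How much of each RNA was pulled down was described by the ratio of mean CPM in the RIPs to mean CPM in the inputs of the line that held it. RIP and input libraries were made with different kits, and the input level in the denominator was used to choose the members, so the ratio only orders the members within a line. Its median was 0.544 over the 18 genes of the eIF4E1b lysate and 0.663 over the 16 genes of the eIF4E1c lysate, with a wide range. Over all genes at 2 CPM or more in the inputs of the line and with RIP counts, the medians were 0.638 for eIF4E1b and 0.793 for eIF4E1c. For the reasons given, no conclusion is drawn from the difference. Among the genes of the eIF4E1b lysate ENSDARG00000108525 had the highest, 2.27, followed by spata6l at 2.22. The lowest there were ENSDARG00000117326 at 0.0916, ppp2r5ca at 0.110 and sned1 at 0.189. In the eIF4E1c lysate AK1 had the highest, 6.67, followed by DSCAM at 1.67. The lowest there were chs1 at 0.0895, PRKG2 at 0.114 and CD109 at 0.122. ppp2r5ca and sned1 had means of 25.4 and 30.3 CPM in the eIF4E1b inputs and 2.81 and 5.73 CPM in the eIF4E1b RIPs.

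Members also differed between input libraries of their own line, the values that chose them. The highest input was 1.75 times the lowest as a median over the 18 genes of the eIF4E1b lysate (1.1 to 5.40) and above 2 times for 5 of them. For the eIF4E1c lysate the median was 1.55 (1.05 to 4.32), with 5 of 16 above 2 times. Over all genes at 2 CPM or more in the inputs of the line, the medians were 1.26 for eIF4E1b and 1.31 for eIF4E1c. Of these genes 7.14% and 8.4% were above 2 times. Since the same input values chose the members, no conclusion is drawn from the difference. The order of the 3 eIF4E1b inputs was kept in the equally numbered RIPs for 7 of 18 genes, against 27.7% of genes at 2 CPM or more in the eIF4E1b inputs. Under TMM scaling it was kept for 9 of 18, and the share over all genes was not counted under that scaling. The same replicate was the lowest in both for 11 of 18, against 45.8%, and the highest for 11 of 18, against 47.9%. sned1 was lowest in replicate 2 of both. These counts also use the input values that chose the members, and the members' inputs were spread more widely than those of all genes. The shares over all genes are thus not a like baseline, and no conclusion is drawn. The eIF4E1c RIPs were not compared in this way because the numbering of the second library differs between its label and its deposited counts.

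The sources used here do not say how reads that match several genes were counted, so the copies that share a name with a member were looked at. For 11 members 12 such copies were found. In the input comparison 9 copies were tested and 0 were called by DESeq2 at an adjusted p under 0.005 or 0.05, where 2.33% and 5.69% of genes were. A count of 0 among 9 is near such shares and says nothing about the copies. edgeR also called 0, where 0.0963% of genes passed at 0.005, and in each tool 2 copies had an unadjusted p under 0.05, where 19% of genes did in DESeq2 and 19.7% in edgeR. These were the second DSCAM gene and NR1D2, the copy of nr1d2a. NR1D2 was at 6.02, 4.14 and 2.08 CPM in the eIF4E1b inputs and 2.32, 1.81 and 0.746 CPM in the eIF4E1c inputs, opposite in sign to nr1d2a (1.28 ± 0.57, DESeq2 adjusted p = 0.180). The copy of ppp2r5ca, ppp2r5cb, was at 124 ± 6.52 CPM in the eIF4E1b inputs and 134 ± 5.74 CPM in the eIF4E1c inputs (SD, n = 3 each). The second GLUL gene (ENSDARG00000100003) was at 213 ± 43.6 CPM and 186 ± 19.8 CPM, and the second NACC1 gene (ENSDARG00000099164) at 151 ± 7.21 CPM and 166 ± 28.5 CPM in the same inputs. These copies were abundant in both lysates. The members ppp2r5ca, NACC1 and GLUL reached at most 0.393, 0.319 and 5.72 CPM in the inputs of the line with less of them. Such low levels were a condition of the rule, so the contrast with the copies is not a test. Whether reads were shared between members and copies was not tested. The second ADGRL3 gene (ENSDARG00000061121) was at 33.2 ± 6.31 CPM in the eIF4E1b inputs and 38.4 ± 5.67 CPM in the eIF4E1c inputs, and the second DSCAM gene (ENSDARG00000028118) at 16.5 ± 1.94 CPM and 25.4 ± 6.67 CPM. creld1a, uraha and the second CLDN11 gene (ENSDARG00000020031) were at or near 0 in both lysates.

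**Figure D4:**
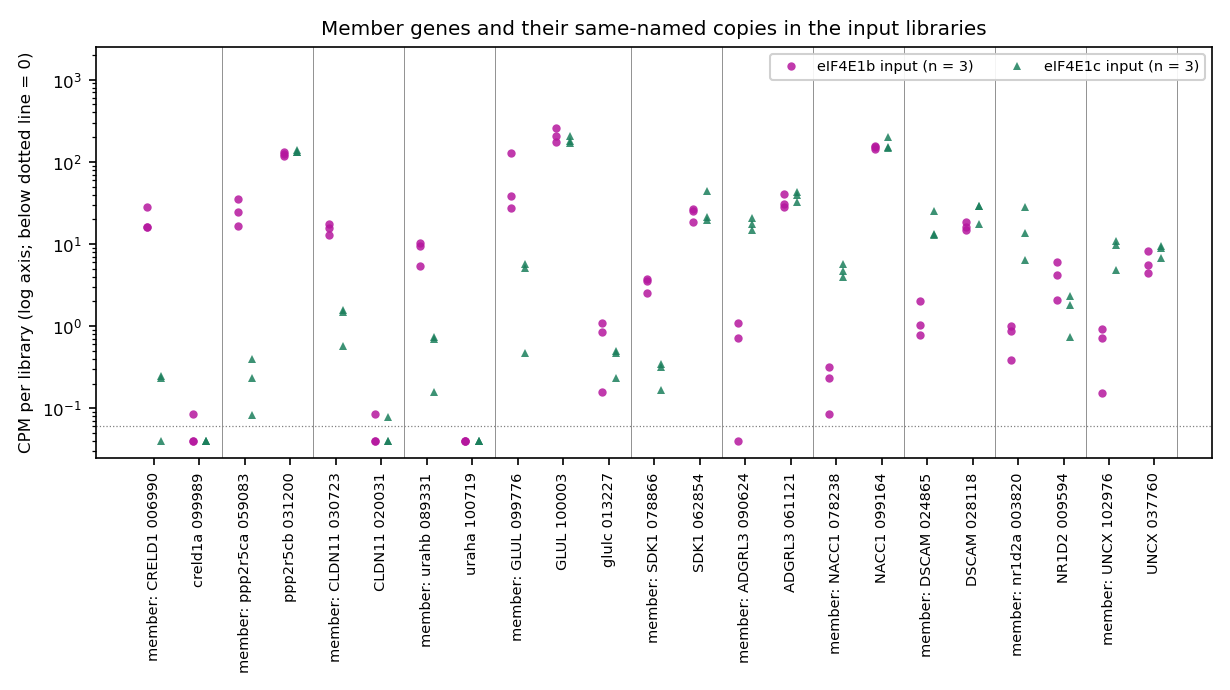
Input levels of members and of their same-named copies in CPM on a log axis, with 1 point per input library. The members are split by line, as the rule requires, whereas ppp2r5cb lies at 124 CPM in the eIF4E1b inputs and 134 CPM in the eIF4E1c inputs on average.

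In the RIPs the second GLUL gene went the other way from the member. It was at 69.5, 60.4 and 52.3 CPM in the eIF4E1b RIPs and 237 and 185 CPM in the eIF4E1c RIPs (-1.79 ± 0.43, DESeq2 adjusted p = 0.000604, edgeR 0.0167), and the call was lost without eIF4E1b RIP replicate 2 or 3 or eIF4E1c RIP replicate 1. ppp2r5cb was at 26.7, 32.8 and 16.8 CPM in the eIF4E1b RIPs and 65.1 and 85.9 CPM in the eIF4E1c RIPs, which missed the threshold (-1.50 ± 0.44, DESeq2 adjusted p = 0.00678). The second ADGRL3 gene had the sign of its member, at 2.09, 2.61 and 2.14 CPM in the eIF4E1b RIPs and 11.5 and 7.27 CPM in the eIF4E1c RIPs, and also missed it (-2.04 ± 0.68, DESeq2 adjusted p = 0.0196).

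The genes next to members on the chromosome were looked at to see whether the difference extended to neighbours. In the RefSeq gene order of GRCz12tu, a later assembly than the one the reads were counted on, 22 of the 34 members could be placed by symbol, and 57 genes among the 3 protein-coding genes on each side were tested in the input comparison. Of these, 25 had the sign of their member, and their median log2 difference toward the member was -0.041, against 0.008 for all genes. DESeq2 called 3 of 57 at an adjusted p under 0.005, against 2.33% of genes, all in the direction of the member, and edgeR called 0 of the 54 it tested, where 17 had an unadjusted p under 0.05, against 19.7% of all genes. At an adjusted p under 0.05 DESeq2 called 6 of 57, against 5.69% of genes, and 4 of these went with the member. opn7d, an opsin gene next to rasef, was at 4.66, 3.03 and 0.231 CPM in the eIF4E1b inputs and 0 in the eIF4E1c inputs (DESeq2 adjusted p = 0.000160, not tested by edgeR), and the call was lost without eIF4E1b input replicate 1 or 2 or eIF4E1c input replicate 3. notch2, a Notch receptor 3 genes from npl, was at 99.0, 57.6 and 55.0 CPM in the eIF4E1b inputs and 18.6, 38.2 and 24.3 CPM in the eIF4E1c inputs (1.32 ± 0.27, DESeq2 adjusted p = 0.000111, edgeR 0.0614), and the call was lost without eIF4E1b input replicate 1 or eIF4E1c input replicate 3. ube2e2, a ubiquitin-conjugating enzyme next to nr1d2a, was at 0.593, 0.558 and 0.385 CPM in the eIF4E1b inputs and 2.90, 3.93 and 2.40 CPM in the eIF4E1c inputs (-2.65 ± 0.63, DESeq2 adjusted p = 0.00153, edgeR 0.0286), and the call was lost when any 1 of the 6 input libraries was left out. Called at 0.05 against the direction of the member were nek10, on the other side of nr1d2a (1.69 ± 0.55, DESeq2 adjusted p = 0.0413), and dync1h1, the dynein heavy chain gene next to ppp2r5ca (-0.87 ± 0.25, DESeq2 adjusted p = 0.0131).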

How the data were processed

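Raw read counts per Ensembl gene were deposited by the authors as 1 table per library. The submitters' processing notes name Trim Galore 0.5.0, Bowtie2 2.3.4.1, featureCounts, Subread 1.6.2, R 3.4.1, DESeq2 1.18.1 and GRCz11. How strand and reads matching several genes were treated is not given in the sources used here, so values of near-identical or overlapping genes are uncertain. RIP libraries were made with an ultra-low-input kit and inputs with a stranded, ribosomal RNA-depleted kit.

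CPM were computed from library totals. The members and gene lists were chosen with earlier results of these data known. The RIP comparison (eIF4E1b over eIF4E1c) was fitted over all genes with the DESeq2 1.42.0 Wald test in R 4.3.3 (median-of-ratios size factors, unshrunken fold changes, Benjamini-Hochberg adjusted p under 0.005), as was the input comparison for copies and flanking genes. The edgeR 4.0.16 quasi-likelihood test was the main alternative. Others were the scaling, the filter on low counts, the threshold, a fit of all 11 libraries, a replicate block, the terms of the rule, and leaving out each library. Of the computations, only the DESeq2 and edgeR fits were tested on simulated data, for genes above a minimum mean count. The rule, the counts made without a model and genes near 0 counts were not covered. Libraries are labelled biological replicates, and how embryos were divided among them is not given in the sources used here, so p-values measure the spread between these libraries. Counting intervals are at 95% (Clopper-Pearson) and, like the limit of 3 counts, cover counting error only. Fold bounds given for the inputs describe values that chose the genes and are not a test.

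The rule for naming genes took the 12 members per line with the largest ratio, members called in the RIP comparison, the 3 genes on each side of the threshold and the bait genes, and the other members are also given. Flanking genes and copies were added after the values were seen. Of 32520 gene IDs, 29201 had a symbol. No sequences were used.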

Additional observations from a re-analysis of the deposited data

How the results depend on the processing

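With edgeR the RIP comparison called 1 gene of the eIF4E1b lysate and 1 of the eIF4E1c lysate at an adjusted p under 0.005, and the cause was not tested. Leaving out single RIP libraries gave 7 to 8 and 4 to 6 calls. Whether replicate numbers pair the RIP libraries could not be told, since the deviations of the 2 eIF4E1c RIPs mirror each other. Over 14351 genes r was 0.098 and 0.056 between deviations of equally numbered libraries. Between eIF4E1b replicate 3 and eIF4E1c replicate 2 it was 0.062. The second eIF4E1c RIP is also numbered differently in its deposited counts. With a replicate block by label the calls were 7 and 4, and ube2e2 lost its call in the inputs. STMND1 lost its call also under TMM scaling, total-count scaling, a minimum of 10 counts and no independent filtering. The number of genes the rule took fell to 11 in the eIF4E1b lysate and 10 in the eIF4E1c lysate at 5 CPM, was 26 in the eIF4E1c lysate at 3 times and 6 at 8 times, and ran over 19 to 34 and 22 to 30 when single input libraries were left out. At 8 times, 3 genes of the eIF4E1c lysate met the rule in the RIPs, and leaving out single RIP libraries gave 7 to 10 in the eIF4E1b lysate and 5 to 10 in the eIF4E1c lysate. Leaving out a library can only add genes whose RIP groups are apart, and the counts were then 15 to 17 and 11 to 16. The same holds for the genes the rule took and those that met it in the RIPs. Flanking genes called in the inputs numbered 6 at an adjusted p under 0.05, 0 with edgeR and 0 to 3 without single libraries, and 0 same-named copies were called without any one library. The log2 fold change ran from -0.63 (without eIF4E1b RIP replicate 1) to 7.14 for ENSDARG00000117432, from -3.66 to 2.84 (without eIF4E1c RIP replicate 2) for ENSDARG00000078238 and from -4.27 to 1.34 (without eIF4E1c RIP replicate 2) for chs1. The other RIP fold changes kept their sign under the alternatives that were run. Depth limits the eIF4E1c RIPs most, where 3 counts are 0.432 CPM in replicate 1 and 0.279 CPM in replicate 2.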
